A study of Mus musculus with 4 samples.

Results

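Genes less often described in microglia, 10 of the 32285 in the count matrices, were followed across cell types, microglial states and brain regions: Cacnb2, Pde2a, Prkce, Slc39a12, Upk1b, Csmd3, Bank1, Khdrbs3, Myo18b and Gm34921. They were chosen by their region and state values in microglia of these same data, as genes of resting or hippocampal microglia, so their microglial levels, log2 differences and counts past a threshold are all a description and no independent test, and no member's p-value is printed for microglia. All 10 were found by symbol in every matrix. The primary cells had been sorted for CD45, a surface marker of leukocytes that microglia also carry, from hippocampus (HPC) and thalamus of C57B6/J mice. Every mouse had a cortical brain injury, so no value is set against uninjured tissue. Each region had 4 sets of cells, told apart by multiplexing oligos and taken as 4 mice (n = 4 and 4), which the labels do not state. P-values therefore measure the spread between these sets. Whether the same mice gave both regions is not stated, and the main region fits treat the sets as independent. Counts from fits with same-numbered sets as a block are given at the end. Region and library cannot be told apart, since each region went into a separate droplet library.

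Microglia are the resident macrophages of the brain. In undisturbed tissue they express homeostatic genes such as P2ry12 and Tmem119, and near damage or dying neurons many turn these down and turn on lipid-handling and lysosomal genes, the disease-associated microglia (DAM) programme. An interferon-responsive state is also known. The 10 genes have varied roles outside microglia. Cacnb2 encodes an accessory beta subunit of voltage-gated calcium channels, Pde2a a phosphodiesterase that breaks down cAMP and cGMP, and Prkce the epsilon isoform of protein kinase C. Slc39a12 (ZIP12) carries zinc into cells. Upk1b is a tetraspanin-like protein of the bladder lining, and Csmd3 is a very large membrane protein with CUB and sushi domains. Bank1 is a scaffold of B-cell receptor signalling, Khdrbs3 a splicing regulator of the STAR family, and Myo18b an unconventional myosin of muscle. Gm34921 is a long intergenic non-coding RNA.

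After filtering, 24939 of 29190 cells remained, with 2072 to 5389 cells and 9789875 to 26636526 gene UMIs (unique molecules counted) per set. Marker genes, none of them among the 10, placed 19683 cells in the microglial gate and 2873 in a T- or NK-like gate. Microglia with at least 2000 UMIs were assigned a state from markers detected after thinning each cell to 2000 UMIs. This gave 14836 homeostatic-like, 1234 DAM-like, 403 interferon-like and 2343 intermediate cells. Homeostatic-like cells had a median of 7 of 8 microglial markers and 0 markers of T or NK cells, B cells, monocytes and macrophages (1 of 8 for neutrophils), and DAM-like cells had a median of 5 of 8 microglial markers. Near the limits of the states, 3285 homeostatic-like cells showed 1 DAM marker, and 661 of the DAM-like cells just reached the 3 DAM markers required. DAM-like cells numbered 482, 139, 176 and 314 in thalamus sets 1 to 4, against 80, 15, 7 and 21 in HPC sets 1 to 4.

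HPC set 1 stood apart from the other HPC sets. It kept 80.5% of its cells where they kept 92.9% to 95.6%, its cells were 67.4% microglia against 90.0% to 96.0%, and 2.20% of its microglia were DAM-like against 0.352% to 0.992%. Region differences below are therefore also given without it. It was the lowest HPC set for 9 of the 10 members in homeostatic-like cells, so leaving it out enlarges most of these differences. Thalamus set 1 also stood apart from the other thalamus sets, with 45.9% of its microglia homeostatic-like against 63.2% to 71.3%. It was the lowest thalamus set in homeostatic-like cells for every member but Pde2a and Csmd3. Leaving it out would thus move the thalamus means of those members towards the HPC means. The log2 differences of most members are not given without that set. No cell barcode occurred in more than 1 set of a region.

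For 3 members that were lower in every thalamus set than in every HPC set in homeostatic-like cells, a promoter window is shown so that the region difference can be read beside its sequence. Each window runs from 250 bases before to 50 bases after an annotated start (RefSeq, GRCm38.p6), 5′ to 3′ on the gene's strand. Capitals mark a match to the letters of a TATA box (TATAAA on either strand). The marked matches of Gm34921 and Slc39a12 lie nearer to the upstream end of the window than to the start. Whether either works as a TATA box was not tested. For Pde2a the window at the outermost of its annotated starts is shown. The Gm34921 window follows the RefSeq start and lies wholly outside the gene's GENCODE M21 span, chr10:99267686-99270446.
Gm34921 (chr10:99270850-99271149, minus strand): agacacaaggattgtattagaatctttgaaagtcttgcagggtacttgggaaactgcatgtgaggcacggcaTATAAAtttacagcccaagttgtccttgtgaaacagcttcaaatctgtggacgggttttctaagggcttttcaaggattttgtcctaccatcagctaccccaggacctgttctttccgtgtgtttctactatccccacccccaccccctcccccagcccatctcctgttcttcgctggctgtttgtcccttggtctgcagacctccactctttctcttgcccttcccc
Slc39a12 (chr2:14388148-14388447, plus strand): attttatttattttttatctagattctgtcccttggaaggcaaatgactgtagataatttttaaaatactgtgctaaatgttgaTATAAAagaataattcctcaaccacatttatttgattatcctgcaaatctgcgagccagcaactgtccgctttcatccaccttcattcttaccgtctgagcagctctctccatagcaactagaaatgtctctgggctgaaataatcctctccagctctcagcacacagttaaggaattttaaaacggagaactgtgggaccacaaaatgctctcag
Pde2a (chr7:101421441-101421740, plus strand): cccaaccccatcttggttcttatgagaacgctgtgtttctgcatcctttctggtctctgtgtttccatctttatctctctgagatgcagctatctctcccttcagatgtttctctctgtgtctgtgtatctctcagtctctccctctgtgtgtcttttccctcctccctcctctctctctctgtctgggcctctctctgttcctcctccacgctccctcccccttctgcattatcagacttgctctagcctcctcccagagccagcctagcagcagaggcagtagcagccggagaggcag
Windows were found for 5 of the 10 members. The motifs searched on both strands were GAGGAAGT (a PU.1 site), TGAGTCA (AP-1), TATAAA and GGGCGG (GC box), which occur in 3.20%, 5.20%, 13.6% and 35.7% of all 32851 promoter windows of this length. A degenerate MEF2 site, which can overlap a TATA box, was also searched and occurs in 3.19% of them. None of the members' windows held a PU.1, AP-1 or MEF2 match. No motif is shared by the 3 windows printed, and the printed Pde2a window held none of the 5. Among the Pde2a windows not printed, the one at chr7:101451002-101451301 held several GC boxes, and the others held no match.

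The members differed widely in length. Lengths ran from 2761 bases in Gm34921 to 1211427 bases in Csmd3 (GENCODE M21, GRCm38), and 5 of the 10 spanned 200 kb or more. Slc39a12 and Cacnb2 are neighbours on the plus strand of chromosome 2, with 108110 bases between them. Whether reads in introns were counted is not stated in the sources used here.

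To ask where the 10 genes were expressed, their levels were first set beside those of other immune cells of the same libraries. Levels are given as UMIs of a gene per 10000 gene UMIs summed over the cells of a set, and they depend on the gene, so levels are compared between cells and not between genes. Cacnb2 averaged 3.77 ± 0.678 in homeostatic-like microglia of the thalamus and 4.75 ± 0.624 in those of the HPC (SD, n = 4), against 0.0213 ± 0.00487 and 0.0350 ± 0.0248 in T- or NK-like cells. Csmd3 averaged 21.7 ± 3.32 and 22.7 ± 8.01 in homeostatic-like microglia and 0.102 ± 0.0214 and 0.281 ± 0.201 in T- or NK-like cells. Among T- or NK-like cells Slc39a12 had 0 UMIs in the thalamus and 3 in the HPC, and a count of 0 there allows up to 0.00495 per 10000.

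Thinned to 2000 UMIs, 41.1% ± 5.87 of homeostatic-like cells in the thalamus and 49.2% ± 4.32 in the HPC had a Cacnb2 UMI, against 0.412% ± 0.302 and 0.518% of T- or NK-like cells. Without thinning the shares of homeostatic-like cells were 57.9% and 67.6%. Median depths before thinning were 4688 UMIs in homeostatic-like and 3596 in T- or NK-like cells. The share with a Gm34921 UMI was 4.59% ± 0.831 and 8.17% ± 0.468 of homeostatic-like cells (9.68% and 17.1% without thinning), against 0.569% and 0.0951% of T- or NK-like cells. Free RNA in droplets can give such low shares in cells that lack a gene.

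Several members were also detected in cells outside the microglial gate. In T- or NK-like cells Prkce reached 0.800 ± 0.0260 (thalamus) and 0.799 ± 0.203 (HPC), beside 1.43 ± 0.247 and 1.73 ± 0.612 in homeostatic-like microglia. Pde2a stood at 0.119 ± 0.0573 and 0.130 ± 0.0491 in the T- or NK-like cells, beside 0.182 and 0.316 in homeostatic-like microglia. Bank1, named for B cells, stood at 14.7 (95% Poisson interval 12.3 to 17.5) in the B-like cells of the thalamus and 9.92 (9.06 to 10.8) in those of the HPC, pooled over 76 cells in all and covering counting error only. Pde2a stood at 0.622 (0.445 to 0.847) in thalamus and 0.430 (0.319 to 0.567) in HPC neutrophil-like cells. Gm34921 stood at 0.358 (0.227 to 0.537) and 0.361 (0.260 to 0.488) in the same cells. Cacnb2 stood there at 0.280 (0.166 to 0.443) in the thalamus and 0.903 (0.738 to 1.09) in the HPC, where single sets ran from 0 to 0.994. Csmd3, at 21.7 and 22.7 in homeostatic-like microglia, stood at 0.233 and 0.181 in neutrophil-like cells, whose median depth was 1930 UMIs. How much of these levels is free RNA was not tested. Upk1b, Khdrbs3, Myo18b and Slc39a12 had 0 UMIs in thalamus neutrophil-like cells, where the 95% Poisson interval reached up to 0.0574.

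To ask whether the members differed by region within 1 state, the sets were then compared in homeostatic-like microglia. The most even difference was that of Gm34921. Its levels were 0.198, 0.259, 0.243 and 0.232 in thalamus sets 1 to 4, against 0.437, 0.448, 0.488 and 0.398 in HPC sets 1 to 4. All thalamus sets lay below all HPC sets, and HPC set 1 lay among the other HPC sets. The log2 difference, thalamus minus HPC, was -0.91 (SE 0.09) and stood at -0.90 without HPC set 1.

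Slc39a12, the zinc importer, also separated the regions. Its levels were 0.0861, 0.133, 0.144 and 0.154 for thalamus and 0.159, 0.277, 0.251 and 0.246 for HPC. The lowest HPC set, set 1, lay just above the highest thalamus set. The log2 difference was -0.81 (SE 0.19), and -0.95 without HPC set 1. Pde2a, the cAMP and cGMP phosphodiesterase, had levels of 0.195, 0.160, 0.181 and 0.191 for thalamus and 0.228, 0.395, 0.384 and 0.258 for HPC. The thalamus sets lay close together while the HPC sets spread, again with set 1 lowest. The log2 difference was -0.78 (SE 0.17), and -0.90 without HPC set 1.

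Cacnb2, the calcium channel subunit, overlapped between regions. Its levels were 2.95, 3.69, 4.60 and 3.82 for thalamus and 4.05, 5.15, 5.38 and 4.41 for HPC. Thalamus set 3 lay above HPC sets 1 and 4. The log2 difference was -0.32 (SE 0.12), the smallest SE among the members but for Gm34921, and -0.37 without HPC set 1.

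For the remaining 6 members HPC set 1 was the lowest of all 8 sets. Bank1 had levels of 0.646, 1.03, 1.16 and 0.940 for thalamus and 0.520, 1.78, 1.75 and 1.42 for HPC. HPC sets 2 to 4 lay above every thalamus set and HPC set 1 below every one. The log2 difference was -0.51 (SE 0.31), and -0.78 without HPC set 1. Upk1b showed the widest spread, with 0.136, 0.369, 0.580 and 0.381 for thalamus and 0.0875, 0.699, 0.805 and 0.542 for HPC. Its log2 difference of -0.49 (SE 0.55) became -0.85 without HPC set 1.

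Khdrbs3, the splicing regulator, had levels of 0.245, 0.401, 0.561 and 0.393 for thalamus and 0.155, 0.764, 0.889 and 0.619 for HPC, a log2 difference of -0.56 (SE 0.42) that became -0.88 without HPC set 1. Myo18b had levels of 0.115, 0.168, 0.237 and 0.217 for thalamus and 0.0692, 0.355, 0.376 and 0.341 for HPC, a log2 difference of -0.57 (SE 0.43) that became -0.91 without HPC set 1. Set 1 was the lowest in both regions for both genes. Over the 8 sets, Upk1b, Bank1, Khdrbs3, Myo18b and Prkce ranked the sets in nearly the same order, with pairwise Spearman rho of 0.93 to 1.0, given as a description of sums that share their libraries.

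Prkce, the kinase, had levels of 1.12, 1.42, 1.72 and 1.45 for thalamus and 0.842, 2.07, 2.20 and 1.81 for HPC, a log2 difference of -0.25 (SE 0.24) that became -0.47 without HPC set 1. Csmd3 had levels of 19.3, 18.9, 26.0 and 22.7 for thalamus and 10.9, 25.2, 29.1 and 25.5 for HPC. The regions overlapped, and the log2 difference was -0.04 (SE 0.24) with a 95% interval of -0.56 to 0.49. It was -0.26 without HPC set 1, and positive in some other fits. The plot of levels in each set and the plot of log2 differences show these patterns.

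**Figure D1:**
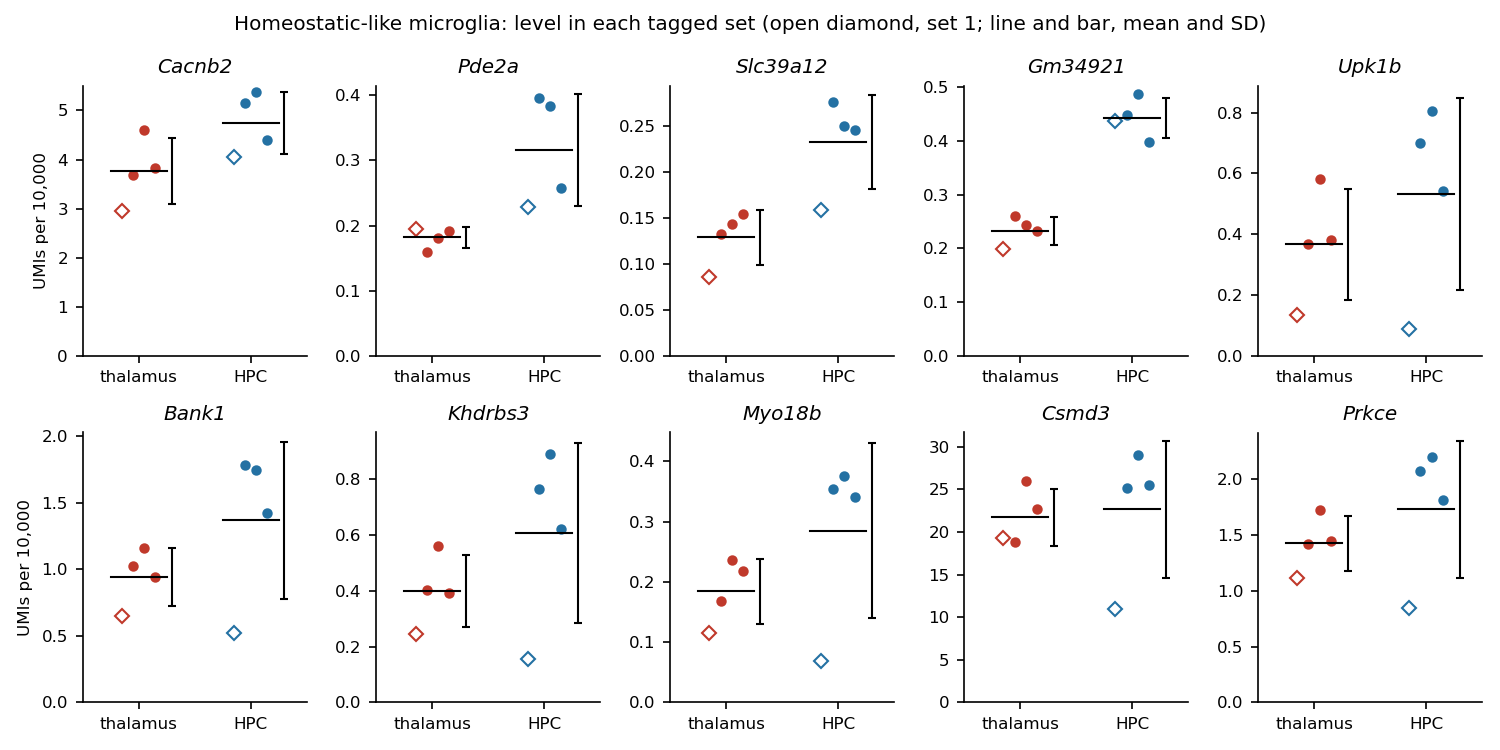
Level of each member in homeostatic-like microglia, in UMIs per 10000, for the 4 thalamus (red) and 4 HPC (blue) sets. Open diamonds are set 1 of each region, horizontal lines the means and bars the SD. Gm34921, Slc39a12 and Pde2a separate the regions, and HPC set 1 is the lowest of all 8 points for Upk1b, Bank1, Khdrbs3, Myo18b, Csmd3 and Prkce.

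**Figure D2:**
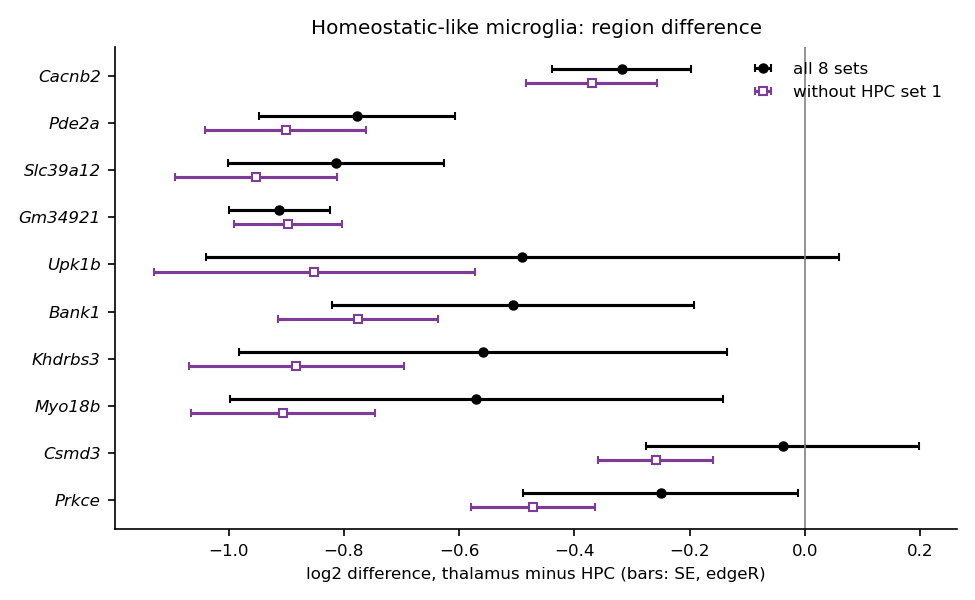
Log2 difference of each member between thalamus and HPC in homeostatic-like microglia, with all 8 sets (black circles) and without HPC set 1 (open squares), bars showing the SE. Gm34921 stays near -0.91, while Upk1b, Bank1, Khdrbs3 and Myo18b move to between -0.78 and -0.91 without HPC set 1.

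In this comparison 1 of the 10 members, Gm34921, passed an adjusted p of 0.05 as lower in the thalamus (edgeR quasi-likelihood test, Benjamini-Hochberg over 12598 genes), where 0.389% of all genes did. The thalamus sets lay below all HPC sets for 3 members, where 5.0% of all genes did. Since region values were known when the genes were chosen, nothing is read from these counts. The median log2 difference of the members was -0.53, and that of all genes tested was 0.00 to 2 decimals. Over all gated microglia without regard to state, the log2 differences were larger, at -1.05 for Gm34921 (SE 0.11), -1.15 for Slc39a12 (SE 0.24), -0.99 for Pde2a (SE 0.17) and -0.61 for Cacnb2 (SE 0.17). Without HPC set 1 they were -1.05, -1.32, -1.10 and -0.68. With all sets these 4 members passed the same threshold, beside 4.68% of all genes.

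Other measures moved with region inside the homeostatic-like gate. The summed level of the 7 DAM markers ran from 2.19 to 4.01 over thalamus sets but from 0.651 to 1.96 over HPC sets, and DAM-like cells were at least 7.57% of microglia in each thalamus set. Within the HPC, set 1 had the highest DAM marker level. The 8 homeostatic markers summed to 83.5 to 105 over thalamus sets and 114 to 119.5 over HPC sets 2 to 4, while HPC set 1 stood at 85.5. The 8 interferon markers summed to 0.954 to 1.52 and 0.647 to 1.33. Median Malat1, a nuclear RNA, was 206 to 228 per 10000 in thalamus and 239 to 254 in HPC cells. The summed level of 8 astrocyte markers was 2.41 to 2.97 in the thalamus and 3.15 to 3.77 in the HPC. Nearly all of it was Slc1a3, and without that gene it was 0.0599 to 0.0981 and 0.0416 to 0.0617. The 10 neuronal markers summed to 0.0207 to 0.0354 and 0.0375 to 0.0470, with Slc17a6 at 0 in 7 of 8 sets. The 8 oligodendrocyte markers summed to 0.996 to 1.12 and 0.968 to 1.04, and the 8 B-cell markers to 0.313 to 0.354 and 0.352 to 0.511. Without Cd79b, the highest of them, the B-cell sum was 0.00631 to 0.0333 in the thalamus and 0.0628 to 0.187 in the HPC, so the regions did not overlap. In HPC sets 1 to 4 that sum was 0.187, 0.109, 0.114 and 0.0628. Cd79a, a B-cell receptor subunit, was lower in the thalamus (log2 difference -2.43, SE 0.38, adjusted p = 0.0149, edgeR). Its mean levels were low, at 0.00550 in the thalamus and 0.0297 in the HPC. Bank1, itself a B-cell gene, had a log2 difference of -0.51 and levels of 0.520, 1.78, 1.75 and 1.42 in HPC sets 1 to 4. The part of these measures in the region differences was not tested.

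To hold the DAM programme more closely, microglia with at most 1 interferon marker were split by the number of DAM markers detected at 2000 UMIs. Among cells with 0 such markers, 3830 for thalamus and 8002 for HPC, Gm34921 stood at 0.229 and 0.440 per 10000 pooled over sets, so the thalamus level was 52.1% of that in the HPC. With 1 marker it was 53.9%, with 2 markers 61.6%, with 3 markers 45.6% and with 4 or more 46.6%. The set ranges did not overlap at 0 and at 1 marker and overlapped at 2. The ratio thus stayed between 45.6% and 61.6% in all 5 bins, although the last 2 bins held only 81 and 38 HPC cells, with 16 and 6 Gm34921 UMIs.

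For Pde2a the thalamus level was 58.9%, 62.7% and 48.7% of the HPC level at 0, 1 and 2 markers, but 90.0% at 3 and 162% at 4 or more, on 5 and 1 HPC UMIs. Slc39a12 stood at 0.147 with 0 markers and 0.0418 with 2 in thalamus cells, and at 0.231 and 0.0534 in HPC cells, with at most 3 UMIs in either region in the last 2 bins. Cacnb2 stood at 85.9% of the HPC level at 0 markers, 69.9% at 1, 62.7% at 2, 98.9% at 3 and 39.0% at 4 or more, with set ranges that overlapped in all but the last bin. Only 1 HPC set had at least 20 cells in each of the last 2 bins. Csmd3 went the other way. Its thalamus level was 104% of that in the HPC at 0 markers, 110% at 1, 141% at 2, 273% at 3 and 307% at 4 or more. Upk1b, Khdrbs3, Myo18b and Prkce stood at 81.9%, 74.2%, 70.8% and 90.3% with 0 markers and at 247%, 108%, 133% and 114% with 2, the latter on 8, 28, 7 and 136 HPC UMIs.

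**Figure D3:**
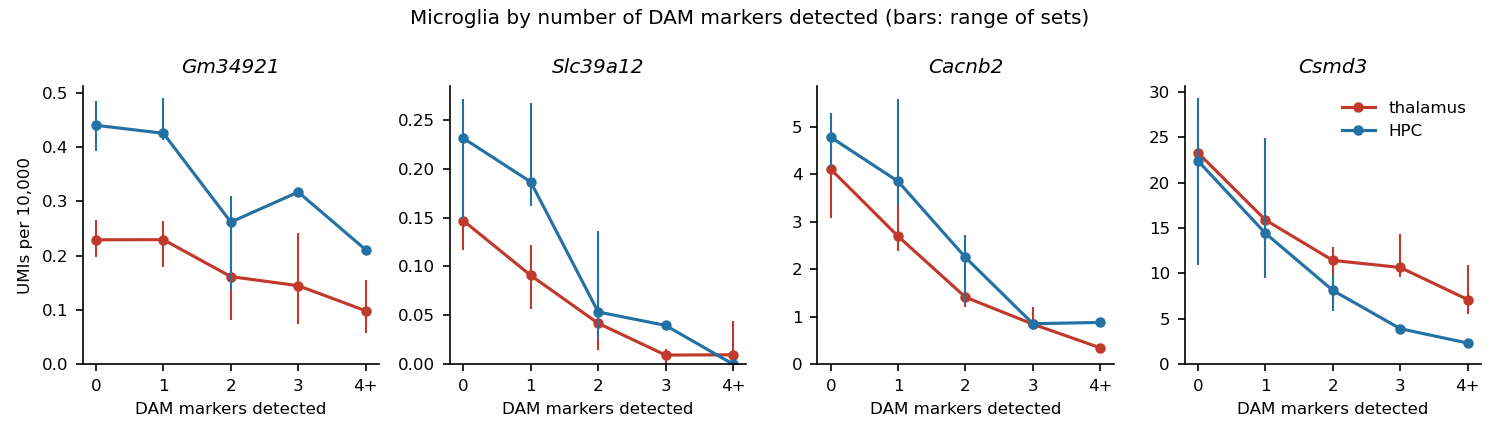
Levels of Gm34921, Slc39a12, Cacnb2 and Csmd3 in UMIs per 10000 against the number of DAM markers detected in microglia thinned to 2000 UMIs, thalamus in red and HPC in blue. Points pool the cells of a region, and vertical bars give the range of sets with at least 20 cells, drawn where more than 1 set had them. The Gm34921 lines run apart along the axis, while those of Csmd3 part only from 2 markers on.

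The 2 main states were then compared within sets, in the 6 sets with at least 20 DAM-like cells (all 4 of the thalamus and HPC sets 1 and 4). All 10 members were lower in DAM-like than in homeostatic-like cells of the same set in 6 of 6 sets, where 29.9% of all genes were. All 10 also passed an adjusted p of 0.05 as lower (edgeR with the set as a block, 11489 genes), beside 18.0% of all genes, and 22.0% were higher. As the genes were chosen as genes of resting microglia, these counts repeat the choice and are a description. Among the 484 genes tested that span 200 kb or more, 32.9% were lower and 24.2% higher, both larger shares than over all genes, with no test of the difference run.

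The size of the difference varied widely. Slc39a12 had the largest, with a log2 difference of -3.31 (SE 0.36), resting on 6 UMIs in thalamus and 2 in HPC DAM-like cells. Its DAM-like levels were 0.00690, 0.0218, 0.00913 and 0.00485 for thalamus sets and 0.0382 and 0 for HPC sets 1 and 4. Bank1 followed with -2.49 (SE 0.17), having DAM-like levels of 0.169, 0.109, 0.0913 and 0.121 for thalamus and 0.115 and 0 for HPC. Cacnb2 followed with -2.22 (SE 0.09), having DAM-like levels of 0.497, 0.828, 0.612 and 0.683 for thalamus and 0.841 and 1.34 for HPC. In each of the 6 sets Cacnb2 kept between 13.3% and 30.5% of its homeostatic-like level.

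Myo18b (-1.70, SE 0.25), Upk1b (-1.52, SE 0.21), Khdrbs3 (-1.42, SE 0.19), Csmd3 (-1.24, SE 0.13) and Pde2a (-1.17, SE 0.20) formed a middle group whose log2 differences lay within a few SE of each other. Gm34921 (-0.63, SE 0.16) and Prkce (-0.50, SE 0.08) had the smallest. Prkce kept 45.4% to 67.5% of its homeostatic-like level in the 6 sets and Gm34921 30.1% to 75.6%. Without HPC set 1 the log2 differences between states ran from -3.64 to -0.54.

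Interferon-like microglia did not repeat the DAM pattern for every member. Cacnb2 averaged 3.61 ± 0.798 in the thalamus and 5.80 ± 0.973 in the HPC (n = 4 and 4), near its homeostatic-like means of 3.77 and 4.75. Bank1 averaged 0.308 ± 0.0914 and 0.607 ± 0.262, beside homeostatic-like means of 0.942 and 1.37. Cacnb2 and Gm34921 were lower in every thalamus set than in every HPC set in this state too, Gm34921 at 0.120 ± 0.102 against 0.407 ± 0.0852. In intermediate cells Cacnb2 alone kept such a separation, with 1.17 to 1.93 in the thalamus and 2.04 to 3.36 in the HPC. No test was run in these states.

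**Figure D4:**
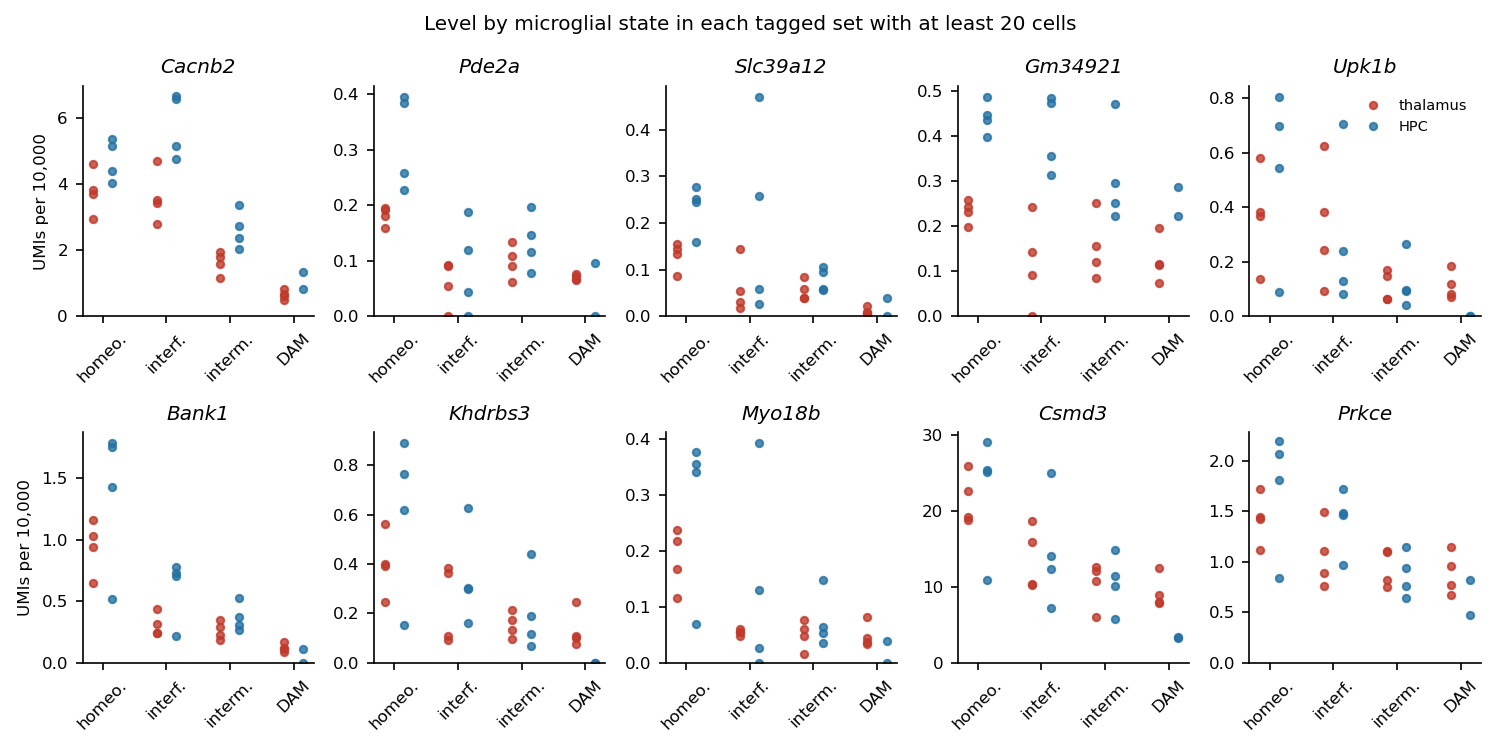
Level of each member in UMIs per 10000 in homeostatic-like, interferon-like, intermediate and DAM-like microglia, each point a set with at least 20 cells, thalamus in red and HPC in blue. Every member is lower in DAM-like cells than in homeostatic-like cells of the same set, Cacnb2 stays high in interferon-like cells, and only Csmd3, Upk1b and Khdrbs3 have all thalamus points above the HPC points in DAM-like cells.

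Within DAM-like cells the region comparison rested on 4 thalamus sets and 2 HPC sets, and 7 of the 10 members passed the filter on low counts. These are again microglial values of genes chosen on such values, given as a description. Csmd3 had levels of 8.02, 7.88, 12.5 and 8.96 against 3.32 and 3.43 in HPC sets 1 and 4. HPC sets 2 and 3, too small for the fit, had 2.25 and 4.83, so all 4 HPC values lay below all thalamus values. The log2 difference was 1.50 (SE 0.18). Csmd3 was the 1 member past an adjusted p of 0.05 as higher, beside 0.729% of 9059 genes (edgeR), and 0 members were past it as lower, with edgeR or DESeq2, beside 0.486% (2 at an unadjusted p under 0.05). Without HPC set 1 the difference was 1.48 (SE 0.29), it no longer passed, and only 1 HPC set remained, assumed to vary like the thalamus sets. The region difference of Csmd3 in DAM-like cells exceeded that in homeostatic-like cells by 1.32 on the log2 scale (SE 0.39, 95% interval 0.50 to 2.14, 12 sums). That fit had no block for set, so the sums of the same set were treated as independent. Over the 12466 genes of that fit, 0 passed an adjusted p of 0.05 for such a difference and 822 had an unadjusted p under 0.05 (edgeR).

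Upk1b had 67 UMIs in DAM-like cells of the thalamus and 0 in those of the HPC. The pooled thalamus level was 0.0961 (Poisson interval 0.0745 to 0.122), and single sets ran from 0.0690 to 0.185. The pooled level was 2.59 times a floor of 3 counts over the HPC cells (0.0372), without the counting error of the thalamus level. The Poisson interval of the HPC level reached up to 0.0457. Of the 123 HPC cells, 80 came from set 1, the lowest of all sets for Upk1b in homeostatic-like microglia (0.0875). Khdrbs3 had 86 UMIs in the thalamus and 2 in the HPC, both in set 2, whose level of 0.195 lay inside the thalamus range of 0.0763 to 0.247. Cacnb2 kept the opposite order in the sets of the fit, with a log2 difference of -0.57 (SE 0.26), although HPC sets 2 and 3 had 0.586 and 0.420, inside or below the thalamus range. Gm34921 had a log2 difference of -1.14 (SE 0.46) on 83 and 22 UMIs. Without HPC set 1 the values were -1.05 (SE 0.44) for Cacnb2 and -0.85 (SE 0.98) for Gm34921. The DAM-like gate itself held different cells by region. The 7 DAM markers summed to 39.6 to 45.1 over thalamus sets but to 23.1 to 28.3 over HPC sets, and Malat1 was lower in the thalamus (log2 difference -0.47, SE 0.07, adjusted p = 0.0028, edgeR; -0.44 without HPC set 1). Their part in the region differences was not tested.

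In T- or NK-like cells, which the choice of members did not use, 3 members passed the filter on low counts. Csmd3 had a log2 difference of -0.89 (SE 0.32, 95% interval -1.57 to -0.22, adjusted p = 0.491), Pde2a of -0.46 (SE 0.38, adjusted p = 0.934) and Prkce of 0.09 (SE 0.13, 95% interval -0.19 to 0.37, adjusted p = 1.00; edgeR, 9117 genes). None passed, here or with DESeq2, and 1 had an unadjusted p under 0.05, beside 0.0329% of genes lower and 0.219% higher in the thalamus. Csmd3 was lower in every thalamus set than in every HPC set there, at levels far under those in microglia. Without HPC set 1 the values were -1.09 for Csmd3, -0.077 for Pde2a and 0.036 for Prkce.

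The genes around the members were examined next, as a region difference could extend over a locus. Gm34921 lies on the minus strand of chromosome 10 (chr10:99267686-99270446). Dusp6, a phosphatase that switches off ERK signalling, lies on the plus strand 196 bases away, and the non-coding gene Gm48089 overlaps Gm34921 on the opposite strand. Gm48089 had levels of 0.103, 0.103, 0.107 and 0.110 in homeostatic-like cells of the thalamus and 0.181, 0.192, 0.231 and 0.165 in the HPC. Its sets separated as those of Gm34921 did, with a log2 difference of -0.84 (SE 0.11, adjusted p = 0.00644, edgeR) and -0.85 without HPC set 1. As the genes overlap, and no source used here states whether counting used strand, their reads may not be fully separate. Dusp6 had levels of 2.35, 2.54, 2.50 and 2.58 for thalamus and 2.31, 2.43, 2.39 and 2.31 for HPC, which overlapped. Its log2 difference was 0.09 (SE 0.04, adjusted p = 0.328, edgeR).

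Across all members, 25 annotated genes lay within 50000 bases and were in the matrices. Of 12 tested between regions in homeostatic-like cells, 1 passed, Gm48089, which was lower in the thalamus, as 0.389% of all genes were. Between states 10 were tested, and 6 were lower and 0 higher in DAM-like cells, 0 also at an unadjusted p under 0.05 and with DESeq2, beside 18.0% lower and 22.0% higher over all genes. They included 2 antisense transcripts inside Cacnb2, Gm10848 (log2 difference -2.13, SE 0.30, adjusted p = 1.09e-06) and Gm13269 (-2.45, SE 0.40, adjusted p = 8.09e-06), Gm31243 antisense to Bank1 (-1.87, SE 0.42, adjusted p = 0.000655), Nsun6 next to Cacnb2 (-0.72, SE 0.11, adjusted p = 1.52e-06), B4galt4 next to Upk1b (-1.03, SE 0.12, adjusted p = 4.88e-08) and Dusp6 (-0.47, SE 0.08, adjusted p = 8.98e-06; edgeR). The antisense genes share their span with a member, so the same limit on strand applies. Gm48089 had a log2 difference of -0.57 (SE 0.24, adjusted p = 0.0620) between the states.

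Relatives of the members were also measured. Between regions in homeostatic-like cells, 81 of 118 genes in 9 family lists were tested, and 2 passed as higher in the thalamus (1.16% of all genes did) and 0 as lower, with edgeR or DESeq2, where 6 had an unadjusted p under 0.05. The 2 were Cacna1a, a pore-forming calcium channel subunit (log2 difference 0.70, SE 0.10, adjusted p = 0.0107), and Fyn, a Src-family kinase (0.61, SE 0.10, adjusted p = 0.0166; edgeR), at 0.77 and 0.61 without HPC set 1. Between states, 74 were tested, with 18 higher and 18 lower in DAM-like cells, a share near the 22.0% and 18.0% over all genes. Their median log2 difference was -0.09, and that of all genes tested was -0.01.

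The counts by family are small, and no family was tested against another or against all genes. Among 6 tested calcium channel subunits, 3 rose and 0 fell in DAM-like cells (0 also at an unadjusted p under 0.05 and with DESeq2), led by Cacna1a (log2 difference 2.35, SE 0.08, adjusted p = 1.24e-19) and Cacna1s (1.03, SE 0.29, adjusted p = 0.00550). Cacna1d, the one with the highest count in homeostatic-like cells, passed as higher by 0.23 (SE 0.07, adjusted p = 0.0146, edgeR) after TMM scaling. Its unscaled levels averaged 2.93 and 2.87 per 10000 and went both ways among the 6 sets. Those of Cacna1s averaged 0.102 and 0.0512 and were not higher in DAM-like cells of every set either. Among 10 phosphodiesterases, 3 fell, namely Pde4d (-1.20, SE 0.11), Pde4b (-1.05, SE 0.11) and Pde3b (-0.83, SE 0.08), and Pde8b rose (0.96, SE 0.12), all at an adjusted p of 2.31e-07 or less (edgeR). Unscaled levels of Pde4b and Pde8b did not go the same way in all 6 sets. Pde8b averaged 0.514 in thalamus and 0.302 in HPC DAM-like cells, beside 0.285 and 0.290 in homeostatic-like cells.

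Of 20 zinc transporters and metallothioneins, 6 rose and 3 fell. The zinc-binding metallothioneins Mt2 (1.58, SE 0.34, adjusted p = 0.00036) and Mt1 (1.10, SE 0.08, adjusted p = 5.47e-12) rose, and the importer Slc39a8 fell (-0.74, SE 0.19, adjusted p = 0.00185; edgeR), though not in every set. Of 15 myosins, 6 rose and 2 fell. Myo10 (2.86, SE 0.21), Myo1e (2.75, SE 0.12) and Myo5a (2.01, SE 0.09), motors of filopodia, membrane and vesicle transport, rose. Myo18a, the closest relative of Myo18b, named after its value was seen, fell by 0.34 (SE 0.09, adjusted p = 0.00463; edgeR).

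Of 10 protein kinase C and D genes, 3 fell and 1 rose, with Prkca at -1.54 (SE 0.09, adjusted p = 2.11e-14) and Prkch at 0.98 (SE 0.08, adjusted p = 5.33e-11; edgeR). Prkcb had the highest count of this list in homeostatic-like cells and did not pass. Of 10 signalling partners of B-cell scaffolds, 6 fell, among them the kinase Syk (-0.62, SE 0.10, adjusted p = 4.09e-06) and Plcg2 (-0.41, SE 0.07, adjusted p = 2.23e-05), and Fyn rose (1.13, SE 0.12, adjusted p = 5.38e-09; edgeR). Fyn was not higher in DAM-like cells of every set. Its DAM-like means were 0.642 in the thalamus and 0.170 in the HPC, beside homeostatic-like means of 0.320 and 0.212. Of 3 STAR RNA-binding genes tested, 1 fell, Khdrbs1 (-0.25, SE 0.07, adjusted p = 0.00530, edgeR). No other uroplakin or CUB and sushi gene passed the filter on low counts between the states. Upk1a, the uroplakin with the highest count, had a mean of 0.00342 per 10000.

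Last, the genes whose pattern was most like that of each member were sought over 24 sums, namely homeostatic-like, intermediate and DAM-like microglia of the 8 sets, among 6978 genes with a mean level of 20 or more CPM (UMIs scaled to 1 shared total per sum). Cacnb2 was most like Serinc3 (Pearson's r = 0.99 on log2 values). Pde2a was most like Bank1, another member, and Hsd17b4 (both 0.95). Slc39a12 was closest to Med12l and Tbc1d5 (both 0.96), Gm34921 to Arrb2 (0.95) and Usp21 (0.93), and Upk1b to Csmd3, also a member (0.95), and Ywhah (0.94).

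Bank1 was closest to Ddx6 and Atp8a2 (both 0.95), Khdrbs3 to Rab14 (0.96) and Trio (0.94), Myo18b to Sdk1 and Pard3b (both 0.95), Csmd3 to Rhob and Rnase4 (both 0.95), and Prkce to Pag1 and Rab3ip (both 0.89). These sums share libraries and a common difference between states, and the DAM-like sums of HPC sets 2 and 3 came from only 15 and 7 cells, so the correlations are a description. Prkce had the lowest values.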

How the data were processed

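CD45-positive cells of 2 regions were measured by droplet single-cell RNA sequencing in 8 sets of cells. The deposited matrices held raw UMI counts per gene and cell, with no normalization, which the authors made with Cell Ranger 7.1.0 per the file headers (the methods name an earlier version) on GRCm38. Whether reads in introns were counted is not stated. The 12 multiplexing oligos took 14.6% of UMIs and were left out. The members and gene lists were chosen with earlier results of these data known. No doublets were removed beyond those that differ in oligo.

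Cells with 200 to 7500 genes and at most 2% mitochondrial counts were kept. A class needed at least 3 of 8 markers and a lead of 2. Homeostatic-like cells had at least 4 homeostatic, at most 1 DAM and at most 1 interferon marker after thinning, DAM-like cells at least 3 DAM and at most 2 interferon markers, interferon-like cells at least 3 interferon and at most 2 DAM markers, and the rest were intermediate. Of the preset lists, 1 gene was not analysed here, which left 7 DAM markers. Levels used unthinned counts.

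Counts were summed per set, with at least 20 cells, and tested with edgeR 4.0.16 in R 4.3.3 (TMM, filterByExpr, quasi-likelihood test, Benjamini-Hochberg over all genes tested, threshold 0.05), and the code was tested on simulated data. Regions were fitted without a block and states with the set as a block. The fit of region by state had no block. All 10 members were named, with called or highest relatives (up to 4 per family list), genes within 50000 bases and the 2 most alike genes per member, except that 2 genes this rule names are not reported here. Of 32285 gene IDs, 32235 were in GENCODE M21. Alternatives were DESeq2 1.42.0, no filter, other gates, limits and depths, a replicate block and leaving out each set. Intervals and floors cover counting error only.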

Additional observations from a re-analysis of the deposited data

Results flagged for a closer look

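Among 40 groups of 4 sets examined, those of each member in homeostatic-like and intermediate microglia of each region, 1 held a set far from the other 3. It was Myo18b in homeostatic-like microglia of HPC set 1, at 0.0692 UMIs per 10000 where HPC sets 2 to 4 had 0.355, 0.376 and 0.341. Chance alone gives about 1 in 20 such groups, or 2 of these 40. HPC set 1 was also the lowest HPC set for 9 of the 10 members in these cells, Gm34921 being the exception, though the others did not reach the same distance.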

How the results depend on the processing

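The alternatives changed 1 choice at a time. In homeostatic-like microglia the number of members called lower in the thalamus, 1, became 3 with DESeq2 and with no filter on low counts, 2 with a mitochondrial limit of 5% and with states set at 3000 UMIs, and 1 to 7 when 1 set was left out, 7 without HPC set 1. Over all gated microglia the count of 4 became 2 to 10 when 1 set was left out, 2 without HPC set 2 and 10 without HPC set 1. In DAM-like microglia the 1 member higher became 2 with no filter and 0 to 1 when 1 set was left out, 0 without HPC set 1. Between the states the same 10 members were called in every alternative but equal cell numbers, where Pde2a, Gm34921 and Prkce lost the call, and 0 were called in T- or NK-like cells. As the members were chosen on such values, these counts describe how the processing moves them and lend no support.

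The sign of Csmd3 in homeostatic-like cells turned, to 0.035 under a stricter state gate, 0.027 with the replicate block, and between -0.26 and 0.097 when 1 set was left out (above 0 without thalamus sets 1 or 2 or HPC sets 2, 3 or 4), and that of Prkce in T- or NK-like cells to -0.040 at the 5% limit. The cause was not tested.

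Sets share the numbers 1 to 4, yet 2 of the 4 same-number correlations of deviations were near 0.07 (range 0.07 to 0.44). These correlations do not settle whether the numbers pair the sets, although 7 of 8 sets correlated best with their own number. With the replicate block, 5 members were called lower in homeostatic-like cells and 8 over all microglia, and all genes called lower there rose from 49 to 374 and higher from 146 to 741. All genes called lower and higher were 97 and 285 with DESeq2, 20 and 78 with the stricter gate, 31 and 97 at 3000 UMIs, and from 12 and 42 to 294 and 654 when 1 set was left out. In T- or NK-like cells the 3 and 20 genes became 26 and 5 with DESeq2, and in DAM-like cells 44 and 66 became 9 and 7 with the stricter gate. The DAM-like comparison rested on 123 cells in the HPC. Without thinning, 18 of the 20 shares of homeostatic-like cells with a member's UMI were higher by more than the SD between sets, those of Csmd3 being the exceptions.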
